A study of Mus musculus with 4 samples.

Results

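The expression of 6 genes of sphingosine-1-phosphate (S1P) signalling was followed in endothelial wells of the mouse ear dermis, namely the receptors *S1pr1*, *S1pr2* and *S1pr3*, the exporter *Spns2* and the kinases *Sphk1* and *Sphk2*. They were chosen by name, and all 6 of the 46517 gene rows were found through their Ensembl identifiers. The cells came from adult female wild-type C57Bl/6 mice, 12 to 26 weeks old by the sample labels (the study's methods name the substrain C57BL/6 J and another age range), with no transgene, treatment or time course, and each replicate was a pool of mice. CD31+/CD45-/Lyve1- cells were sorted singly into plates of 384 wells for Smart-seq2, which counts reads along whole transcripts without molecular identifiers. There were 2 replicates of 2 plates (A and B), so that a value in one replicate rests on 1 pool of mice and wells are not replicates.

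S1P is a lipid made inside cells when sphingosine kinases phosphorylate sphingosine. Endothelial cells release it through the transporter Spns2, and it acts from outside on G-protein-coupled receptors. S1pr1, coupled to Gi, is known for tightening endothelial junctions and stabilising vessels, whereas S1pr2 and S1pr3 also couple to G12/13 and Gq and can raise contractility, S1pr3 being a known receptor of smooth muscle and pericytes. Lymphatic endothelium is known to supply S1P to lymph through Spns2.

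Of the 1536 wells, 1521 passed the limits of at least 600 counts and 500 to 8000 genes with a read. The plates held 31864976 to 74739095 counts, and the median per well was 142087 and 182926 in the plates of replicate 1 and 40324 and 42540 in those of replicate 2. Blood vascular endothelial cells (BECs) were wells in which 2 or more of *Cdh5*, *Kdr* and *Pecam1* had a read and in which *Kcnj8*, *Pdgfrb*, *Ptprc*, *Prox1* and *Lyve1* each stayed below 100 CPM (reads of a gene per 1000000 counts of the well). They were clustered without the S1P genes, and 3 clusters were named from markers, 10 of 12 artery markers being higher in the artery-like, 8 of 11 capillary markers in the capillary-like and 8 of 11 vein markers in the vein-like wells of both replicates. Lymphatic wells had at least 100 CPM of *Prox1*, and mural-mixed wells had endothelial reads together with at least 100 CPM of the mural genes *Pdgfrb* or *Kcnj8*. Some lymphatic wells go against the Lyve1- gate of the sort, with a read of *Lyve1* in 16.7% and 74.6% of them. The mural-mixed wells go against the sorted cell type, and whether their mural reads came from the endothelial cell itself or from another source cannot be told apart. Replicates 1 and 2 held 17 and 24 artery-like, 140 and 57 capillary-like, 82 and 43 vein-like, 12 and 67 lymphatic and 408 and 70 mural-mixed wells, 920 in all. Depth moved with class, since the median count of the capillary-like wells was 137377 in replicate 1 and 26372 in replicate 2, and that of the mural-mixed wells 183604 and 19034. The capillary markers summed to 17436 CPM in the capillary-like wells of replicate 1 but to 3999 CPM in those of replicate 2, where the median well had 854 CPM, less than the 900.1 CPM of artery-like and the 2692 CPM of vein-like wells. The name capillary-like thus rests on the mean in replicate 2 and not on the typical well. No well repeated the counts of another, and no well name occurred on more than 1 plate.

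Background was read from *Pecam1*-low mural wells, in which *Pdgfrb* or *Kcnj8* reached 300 CPM while *Pecam1* stayed below 100 CPM, 8 in replicate 1 and 38 in replicate 2, with median counts of 197462 and 170239. Of these 46 wells, 25 were also among the mural-mixed wells. Because such wells still held a read of *S1pr1* in 87.5% and 36.8% of cases, the share of wells at 100 CPM or more is given beside the share with any read. In a shallow well 1 read can reach 100 CPM, as it did for *S1pr3* in 1 lymphatic well of replicate 2. The *Pecam1*-low mural wells are not free of endothelial RNA, since the 8 endothelial markers summed to 2532 and 760.0 CPM there, so for endothelial genes they give a comparison and not a true zero. Intervals for shares are exact 95% binomial intervals and cover counting error only.

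*S1pr1* (ENSMUSG00000045092, chromosome 3 from 115710433 to 115715072 on the minus strand in mm10) was the most abundant of the 6 genes in the artery-, capillary- and vein-like and the lymphatic wells of both replicates, and the vessel class with most of it was artery-like in both. Artery-like BECs held a mean of 749 CPM per well in replicate 1 and 1159.5 CPM in replicate 2, or 954 ± 290 (SD, n = 2). In the capillary-like class it stood at 708 and 334 CPM and in the vein-like class at 425 and 432 CPM, so that the 2 replicates of the vein-like wells were close and those of the capillary-like wells far apart. The plates of the artery-like wells lay between 720.3 and 1195 CPM and those of the vein-like wells between 352 and 639 CPM, without overlap. Capillary-like plates ran from 204 to 766 CPM and overlapped with both.

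Most BECs of the 3 vessel classes had the receptor. At 100 CPM or more stood 82.4% (56.6 to 96.2) and 100% (85.8 to 100) of the artery-like wells, 85.7% (78.8 to 91.0) and 56.1% (42.4 to 69.3) of the capillary-like wells, and 80.5% (70.3 to 88.4) and 74.4% (58.8 to 86.5) of the vein-like wells. Of the *Pecam1*-low mural wells only 25.0% (3.19 to 65.1) and 5.26% (0.644 to 17.7) did. With every well thinned to 20000 reads, a read of *S1pr1* was left in 94.1% and 100% of artery-like, 95.0% and 76.5% of capillary-like and 85.4% and 83.7% of vein-like wells, 23 of the 57 capillary-like wells of replicate 2 being too shallow to enter. Within a class the level spread widely: the median and the highest artery-like well of replicate 2 had 779 and 7280 CPM.

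Counts were then summed per replicate and class and compared by edgeR's quasi-likelihood test with Benjamini-Hochberg adjustment over 17150 genes. The log2 difference of *S1pr1* between artery-like BECs and the mean of the other vessel classes was 0.93 ± 0.38 (SE), with an unadjusted p of 0.032 and an adjusted p of 0.67 (edgeR). In vein-like BECs the log2 difference was -0.94 ± 0.41, with an adjusted p of 0.78 (edgeR). Neither passed the threshold of 0.05, although both kept their sign in every alternative run, with log2 values of 0.31 to 1.49 and of -1.11 to -0.51 among those with a test. The value of 1.49 came from the 10 CPM limit, under which replicate 1 had no artery-like or capillary-like sum. Few genes of any kind were called here, 0.035% of those tested in artery-like BECs and 0% each in capillary-like and vein-like BECs. Of the 6 S1P genes, edgeR called 0 in each of these comparisons, DESeq2 also called 0, and 1, 0 and 1 had an unadjusted p under 0.05. Over all genes, 7.31%, 5.45% and 6.30% had an unadjusted p under 0.05 in these comparisons, and DESeq2 called 4.09%, 0.98% and 1.41%.

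Lymphatic wells held 345 and 624 CPM of *S1pr1*, with 9 of 12 and 40 of 67 wells at 100 CPM or more. The log2 difference from the mean of the BEC classes was -0.56 ± 0.38, with an adjusted p of 0.60 (edgeR). In mural-mixed wells the receptor was at 404 and 155 CPM, and the log2 difference from BECs was -1.17 ± 0.40, with an unadjusted p of 0.014 and an adjusted p of 0.28 (edgeR). Endothelial transcripts as a whole were also lower there, the 8 endothelial markers summing to 6976 and 2081 CPM against 10636 and 7274 CPM in the wells of the 3 vessel classes. Their part in the difference was not tested. In the *Pecam1*-low mural wells *S1pr1* stood at 142 and 22.3 CPM.

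**Figure D1:**
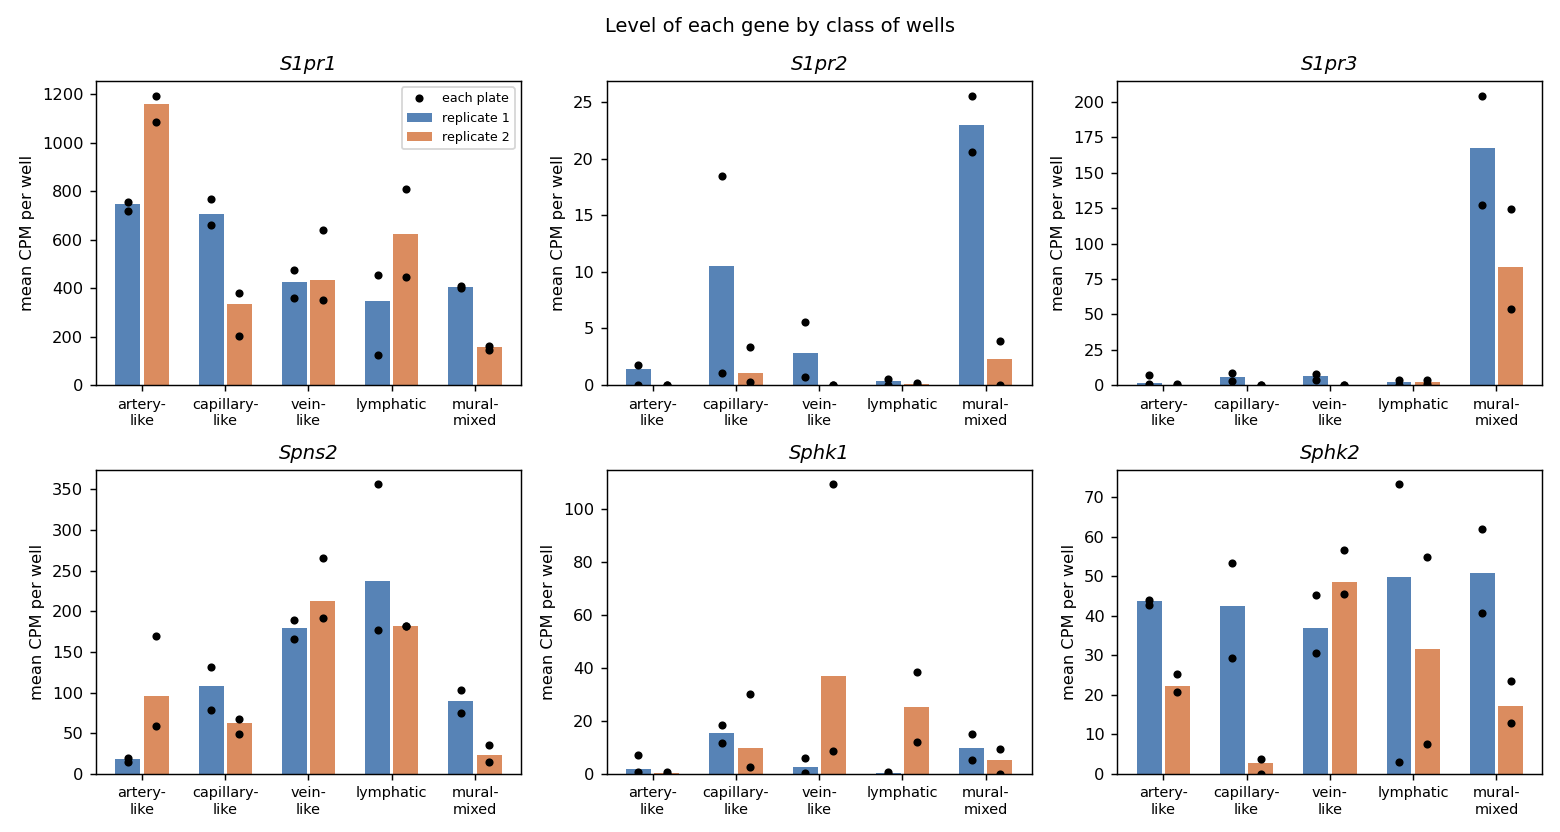
Mean CPM per well (y axis, linear, from 0) of the 6 genes in 5 classes of wells (x axis). Bars are replicates and black points the plates of each replicate. *S1pr1* reached 749 and 1159.5 CPM in artery-like wells, and *S1pr3* stood highest in mural-mixed wells, at 168 and 83.1 CPM.

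*S1pr3* (ENSMUSG00000067586, chromosome 13 from 51408639 to 51422797 on the plus strand) had another pattern. It is shown with the window around its RefSeq start site (GRCm38.p6, chr13:51408368-51408667, plus strand, 250 bases before the start to 50 after), because it was the gene of the 6 that separated the classes. Capitals mark matches of CACCC and of GGGCGG on either strand, and these letters occur in 57.5% and 35.7% of all 32851 windows of the same length.
S1pr3: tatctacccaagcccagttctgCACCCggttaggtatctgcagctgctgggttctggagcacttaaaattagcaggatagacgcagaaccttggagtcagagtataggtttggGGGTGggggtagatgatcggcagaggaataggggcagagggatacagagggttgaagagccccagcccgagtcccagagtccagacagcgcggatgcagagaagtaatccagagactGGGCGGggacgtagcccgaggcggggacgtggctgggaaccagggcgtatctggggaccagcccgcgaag
The window held 2 CACCC boxes, 1 GC box and 1 E-box (CANNTG, in 72.3% of windows), and no CArG box, which is known from smooth muscle genes and occurs in 1.63% of windows. None of the other 9 windows listed for the S1P genes held a CArG box.

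In artery-, capillary- and vein-like BECs, *S1pr3* stood at 1.72, 5.36 and 6.12 CPM in replicate 1 and at 0.223, 0.0652 and 0.127 CPM in replicate 2. These values rest on 182 reads in 239 wells and on 3 reads in 124 wells. In replicate 1, 33.5% (27.5 to 39.8) of these wells had a read of *S1pr3*, but 2 of 239 reached 100 CPM. In replicate 2, 2.42% (0.502 to 6.91) had a read and 0 of 124 reached 100 CPM, for which the limit of 3 wells that a count of 0 allows is 2.42% and the exact interval ends at 2.93%. Lymphatic wells had 2.32 and 1.86 CPM, from 5 and 3 reads, the value of replicate 2 lying above those of its BEC classes through 1 well at 111 CPM. They had a read in 25.0% and 4.48% of wells, and the intervals of these shares, 5.49 to 57.2 and 0.933 to 12.5, overlapped with those of BECs.

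Mural-mixed wells held 168 and 83.1 CPM of *S1pr3*. Their plates, from 53.9 to 205 CPM, all lay above every plate of the artery-, capillary- and vein-like and the lymphatic wells. At 100 CPM or more were 99 of 408 wells in replicate 1, 24.3% (20.2 to 28.7), and 8 of 70 in replicate 2, 11.4% (5.07 to 21.3). In wells thinned to 20000 reads the levels were 169 and 175 CPM, where 36 of the 70 wells of replicate 2 were too shallow to enter, with a read in 33.2% of 400 and 20.6% of 34 wells. The *Pecam1*-low mural wells had 388 and 154 CPM, and in wells thinned to 20000 reads 287.5 and 153 CPM, so that in replicate 2 their place above or below the mural-mixed wells depended on the thinning, with 2 of 8 and 7 of 38 wells at 100 CPM or more. Any read of *S1pr3* was found in 58.1% (53.1 to 62.9) and 12.9% (6.05 to 23.0) of mural-mixed wells, with a median of 4.03 CPM in replicate 1 and a highest well of 2484 CPM.

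The difference between mural-mixed wells and the 3 BEC classes was 8.25 ± 1.22 (SE) on the log2 scale, with an adjusted p of 0.022 (edgeR). *S1pr3* was the 1 gene of the 6 that rose, where 0.513% of all genes tested were called, 88 genes that were all higher. The fitted size depends on how few reads the BECs had. From the reads themselves, mural-mixed wells held 40.2 times as much as the 3 vessel classes together in replicate 1 (34.7 to 46.8) and 1269 times in replicate 2 (433 to 6164), where the lower value rests on the 3 reads. These intervals cover the counting of reads only, which are not independent molecules, and single capillary-like and vein-like wells of replicate 1 reached 290.1 and 293 CPM. Without replicate 2 the log2 difference was 5.70 and without replicate 1 it was 8.56, both without a test. The call was lost when the fit used plate A only (8.12, adjusted p = 0.099) or plate B only (8.38, adjusted p = 0.10), and it held in the other 12 alternatives with a test.

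The mural marker list moved with this result, as the gate requires. Its 10 genes summed to means of 9112 and 6628 CPM in mural-mixed wells, where the median well had 8407 and 1415 CPM, 20118 and 15412 CPM in the *Pecam1*-low mural wells, and 1392 and 495 CPM in the 3 BEC classes. The 7 fibroblast markers were also higher, at 1774 and 1953 CPM in mural-mixed wells beside 544 and 235 CPM in BECs. In replicate 2 the median count of the 51 mural-mixed wells with *Pecam1* at 100 CPM or more was 8839, so that 1 read of a mural gene can pass the gate there. The part of these values in the result was not tested. When BECs were limited to wells with fewer than 10 CPM of each non-BEC gene, the log2 difference was 7.86 (adjusted p = 0.047), but the BECs of replicate 1 then came down to 10 vein-like wells, with no artery-like or capillary-like sum.

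A single clustering of all wells, also made without the S1P genes, gave a finer view of where *S1pr3* lay. The cluster led by *Nrip2*, *Myh11* and *Acta2*, the last pair being contractile genes of smooth muscle, held 509 CPM in 18 wells of replicate 1 and 146 CPM in 40 wells of replicate 2. There *S1pr1* was low, at 31.6 and 19.0 CPM, and *Spns2* stood at 5.32 and 2.76 CPM. The cluster with *Steap4*, *Vtn* and *S1pr3* itself among its leading genes held 287 and 204 CPM of *S1pr3* in 139 and 12 wells, with *S1pr1* still at 444 and 584 CPM. The remaining cluster with mural markers, led by *Ccl2*, had 100.1 and 118 CPM in 170 and 6 wells. A cluster with 6 of 7 fibroblast markers higher held 120 CPM in 62 wells of replicate 1 and 2.93 CPM in 327 wells of replicate 2. Since clusters are drawn from the same wells, these levels are descriptions.

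Within single wells, the 2 receptors could be found together. Of the 99 mural-mixed wells of replicate 1 with *S1pr3* at 100 CPM or more, 69 also had *S1pr1* at that level, 69.7%, beside 73.3% of all mural-mixed wells. In replicate 2 it was 2 of 8, beside 34.3% of all. Of the *Pecam1*-low mural wells with *S1pr3* at that level, 0 of 2 and 0 of 7 also had *S1pr1*, beside 25.0% and 5.26% of all *Pecam1*-low mural wells. Both receptors at 100 CPM or more were met in 2 of 239 and 0 of 124 wells of the vessel classes, the same numbers as had *S1pr3* at that level.

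**Figure D2:**
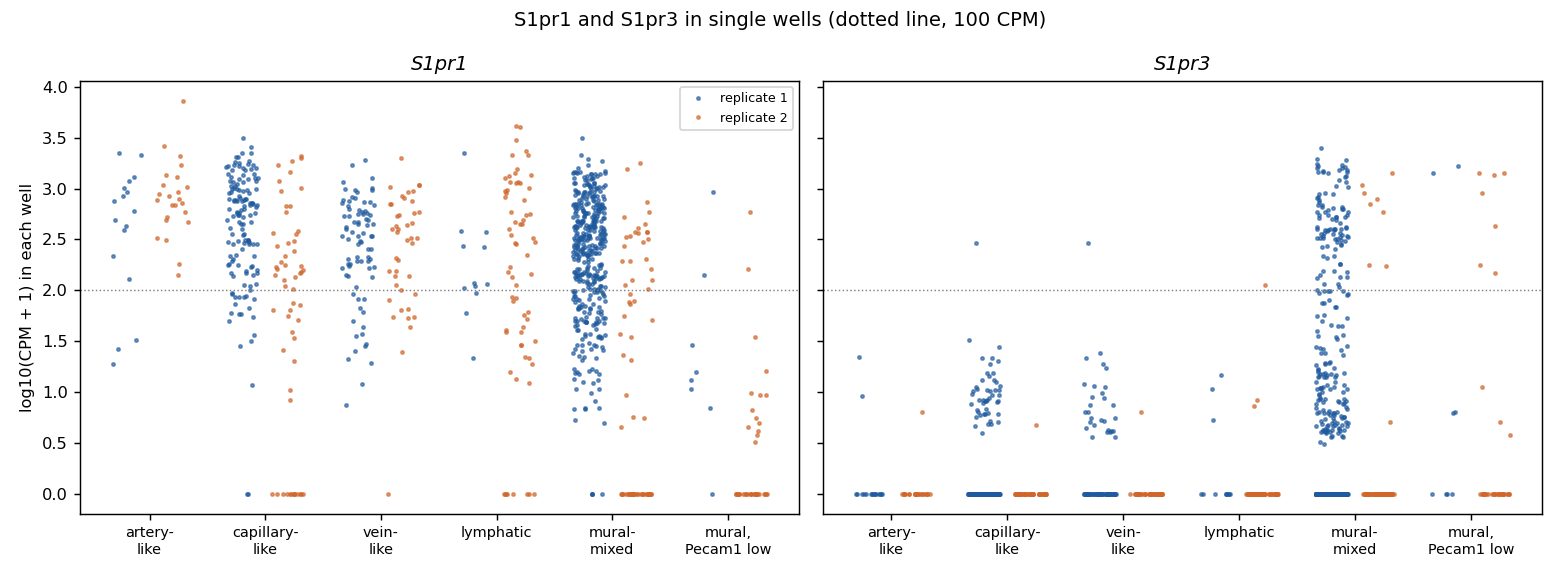
*S1pr1* and *S1pr3* in each well, as log10(CPM + 1) on the y axis, by class (x axis) and replicate (colour). The rightmost class is the *Pecam1*-low mural wells, and the dotted line marks 100 CPM. *S1pr3* points above the line lie almost all in the mural classes, where 99 of 408 and 8 of 70 mural-mixed wells reached it.

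*S1pr2* (ENSMUSG00000043895, chromosome 9 from 20962361 to 20976781, minus strand) was low in every class. It stood between 0 and 10.5 CPM in the vessel classes, with 408 reads in 239 wells of replicate 1 and 2 reads in 124 wells of replicate 2. Of the 5 classes, mural-mixed wells had most, at 23.0 CPM in replicate 1, where 24 of 408 wells reached 100 CPM, and at 2.29 CPM in replicate 2, where 1 of 70 did. The *Pecam1*-low mural wells stood at 105 and 17.2 CPM, with 1 of 8 and 3 of 38 wells at 100 CPM or more. In artery-like and vein-like wells of replicate 2 it was seen in 0 of 24 and 0 of 43, for which the limits of 3 wells are 12.5% and 6.98% and the exact intervals end at 14.2% and 8.22%. The adjusted p of mural-mixed wells against BECs was 0.78 (edgeR). In replicate 2 the comparison rested on 4 reads in mural-mixed wells and 2 reads in the vessel classes. The part of these few reads in the result was not tested.

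*Spns2* (ENSMUSG00000040447, chromosome 11 from 72451638 to 72489904, minus strand), the S1P exporter, was highest in lymphatic and vein-like wells among the 5 classes. Lymphatic wells held 237 and 182 CPM, or 209 ± 38.7 (SD, n = 2), and vein-like BECs 179 and 212 CPM, or 196 ± 23.4. Capillary-like BECs held 107 and 62.2 CPM, artery-like BECs 18.7 and 95.9 CPM, and mural-mixed wells 89.6 and 23.1 CPM. The lymphatic and vein-like classes overlapped with each other, and each lay above the capillary-like, artery-like and mural-mixed classes in both replicates. Artery-like wells were below capillary-like wells in replicate 1 and above them in replicate 2, where 1 of 24 artery-like wells stood at 1339 CPM. In the summed counts artery-like lay below capillary-like BECs in both replicates, at 25.1 against 109 CPM and at 76.2 against 128 CPM.

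The exporter was found in fewer wells than *S1pr1*. In vein-like BECs 47.6% (36.4 to 58.9) and 23.3% (11.8 to 38.6) of wells had 100 CPM or more, and in lymphatic wells 41.7% (15.2 to 72.3) and 22.4% (13.1 to 34.2). Capillary-like BECs followed with 22.9% (16.2 to 30.7) and 7.02%, 4 of 57 wells, and artery-like BECs with 5.88% (0.149 to 28.7) and 12.5% (2.66 to 32.4). In the *Pecam1*-low mural wells it was 1 of 8 and 0 of 38. A read of any number was found in 50.0% and 10.5% of those wells (15.7 to 84.3 and 2.94 to 24.8), beside 47.1% and 25.0% of artery-like BECs. In replicate 2, the highest vein-like plate was at 266 CPM and the highest artery-like plate, of 8 wells, at 169 CPM.

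On the log2 scale the differences of *Spns2* were 1.31 ± 0.62 in lymphatic wells against the BEC classes (adjusted p = 0.40, edgeR), 1.24 ± 0.68 in vein-like BECs (adjusted p = 0.84, edgeR) and -1.56 ± 0.76 in artery-like BECs (adjusted p = 0.70, edgeR). None passed the threshold. In the lymphatic comparison 1.92% of all genes were called, and 0 of the 6 S1P genes were, by edgeR and by DESeq2, with 0 at an unadjusted p under 0.05. The artery-like difference turned to a positive sign at the 300 CPM limit (0.96) and with plate A only (0.84), where replicate 1 had too few artery-like wells for a sum. In mural-mixed wells the adjusted p was 0.92 (edgeR), and the log2 difference ran from -2.80 without replicate 1 to 0.13 without replicate 2.

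*S1pr1* and *Spns2* could be found in the same wells, at shares near that of *S1pr1* in all wells of the vessel classes. Of the 72 wells of the vessel classes of replicate 1 with *Spns2* at 100 CPM or more, 84.7% also had *S1pr1* at that level, where 83.7% of all wells of these classes did. In replicate 2 it was 13 of 17 wells, 76.5%, beside 71.0%. The difference between these shares was not tested.

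**Figure D3:**
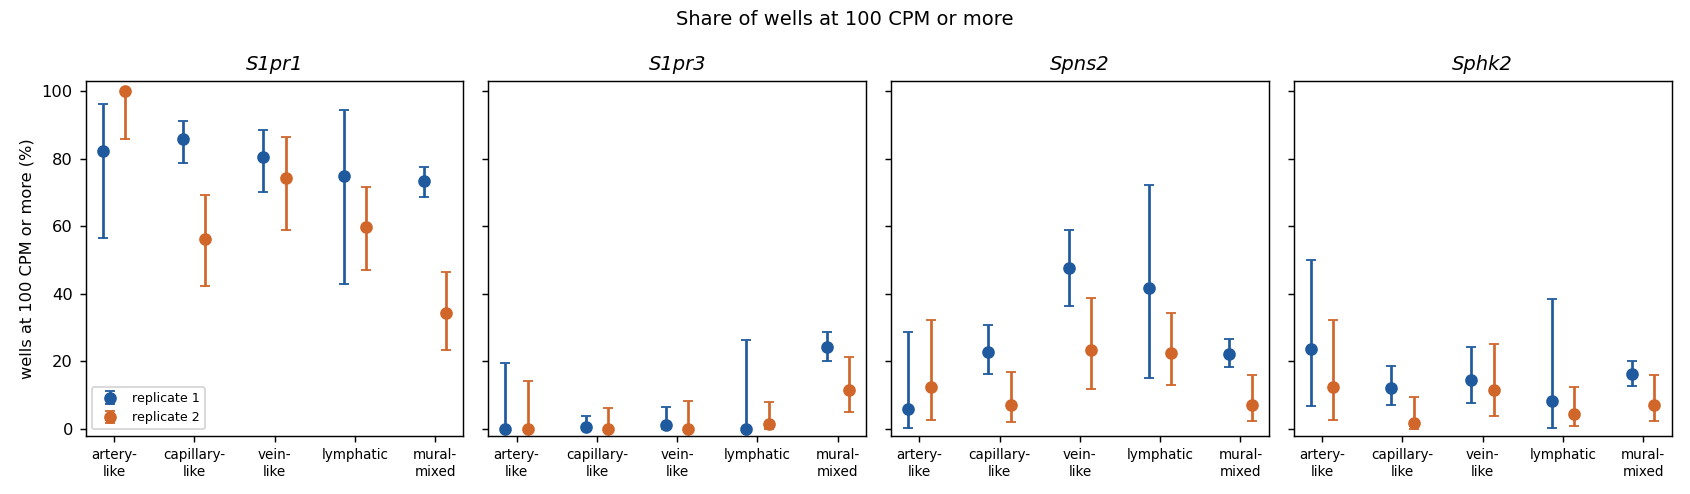
Share of wells at 100 CPM or more (y axis, percent) by class and replicate, with exact 95% binomial intervals as bars, for *S1pr1*, *S1pr3*, *Spns2* and *Sphk2*. *S1pr3* was at 24.3% and 11.4% in mural-mixed wells and at 1.49% or less elsewhere, and *Spns2* was at 47.6% and 23.3% in vein-like wells.

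The kinases were low. *Sphk1* (ENSMUSG00000061878, chromosome 11 from 116530925 to 116536674, plus strand), the mainly cytosolic enzyme, stood at 1.78, 15.3 and 2.67 CPM in artery-, capillary- and vein-like BECs of replicate 1 and at 0.223, 9.78 and 36.7 CPM in those of replicate 2. Lymphatic wells held 0.362 and 25.3 CPM, and mural-mixed wells 9.86 and 5.37 CPM. Single wells carried these means. The vein-like value of replicate 2 came from 7 of 43 wells with a read, 3 of them at 100 CPM or more and the highest at 699 CPM, and plate B of that replicate stood at 109 CPM while the other 3 plates lay between 0.127 and 8.61 CPM. Over the vessel classes, 5 of 239 and 4 of 124 wells reached 100 CPM.

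*Sphk2* (ENSMUSG00000057342, chromosome 7 from 45709467 to 45718002, minus strand), found in the nucleus and other compartments, was at 43.7, 42.4 and 36.9 CPM in artery-, capillary- and vein-like BECs of replicate 1 and at 22.1, 2.73 and 48.5 CPM in those of replicate 2. Lymphatic wells held 49.8 and 31.5 CPM, with the highest of 12 wells at 582 CPM and the highest of 67 at 1703 CPM. Mural-mixed wells held 50.8 and 17.2 CPM. No class stood apart in both replicates, and the *Pecam1*-low mural wells had 61.1 and 55.2 CPM, the latter with a single well of 38 at 1468 CPM. Of the exonic bases of *Sphk2*, 21.9% are shared with genes on the opposite strand, 539 bases with *Dbp* and 373 with *Rpl18*, and Smart-seq2 reads carry no strand, so reads of these genes cannot be told apart there. For the other 5 genes the shared part was 4.02% of bases or less.

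None of the kinase differences passed the test, the lowest adjusted p over the 5 comparisons being 0.73 for *Sphk1* in artery-like BECs, where it had 3 and 1 reads, and 0.96 for *Sphk2* in capillary-like BECs (edgeR).

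**Figure D4:**
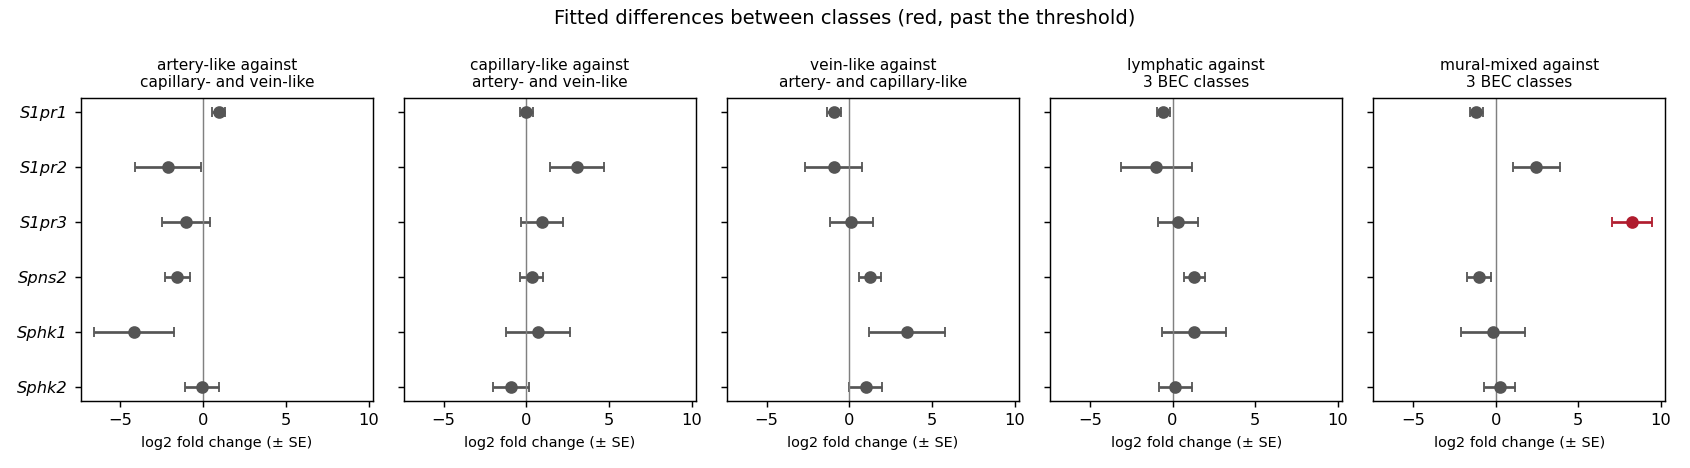
Fitted log2 fold change with its SE (x axis) of the 6 genes (y axis) in each of 5 comparisons. Red marks an adjusted p under 0.05, which held for *S1pr3* in mural-mixed wells (8.25 ± 1.22), and grey marks the other differences.

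Set per kilobase of exon, so that genes can be ranked, the level of *S1pr1* in vein-like BECs was 139 and 142 CPM per kb, that of *Spns2* 43.9 and 52.0, that of *Sphk2* 8.87 and 11.7 and that of *S1pr3* 1.37 and 0.0285. In artery-like BECs *S1pr1* was at 246 and 381 CPM per kb and *Spns2* at 4.58 and 23.5. In mural-mixed wells the receptors were closer, *S1pr1* at 133 and 50.9 and *S1pr3* at 37.5 and 18.6 CPM per kb. The order of *S1pr1* over *Spns2* over *Sphk2* held in both replicates of every class but the artery-like one, where *Sphk2* lay above *Spns2* in replicate 1. A median of 2 of the 6 genes had a read in the vessel-class wells of replicate 1 and of 1 in those of replicate 2.

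Among 14 other genes of S1P reception, removal and transport, 12 could be tested and edgeR called 0 in each of the 5 comparisons. Those at an unadjusted p under 0.05 were 2, 0, 1, 4 and 1 in the artery-, capillary-, vein-like, lymphatic and mural-mixed comparisons, and DESeq2 called 1, 0, 0, 2 and 0. Over all genes the shares at an unadjusted p under 0.05 were 7.31%, 5.45%, 6.30%, 13.3% and 9.08%, and DESeq2 called 4.09%, 0.98%, 1.41%, 9.51% and 3.85%. The highest levels were those of *Abcg2*, a transporter, from 253 to 1741.5 CPM over classes and replicates, of *Plpp1* and *Plpp3*, phosphatases that take phosphate off S1P outside cells, from 174 to 825 and from 43.8 to 821 CPM, and of *Abca1*, from 51.7 to 239 CPM. *Plpp3* was lowest in lymphatic wells in replicate 1, at 43.8 CPM, while the vein-like wells held 627 and 821 CPM, and its adjusted p in the lymphatic comparison was 0.12 (edgeR). *S1pr4*, known as a receptor of blood cells, was chosen after its values were seen. It stood at 163, 141 and 53.8 CPM in artery-, capillary- and vein-like BECs of replicate 1 and at 68.0, 108 and 111 CPM in those of replicate 2, with 16.3% and 13.7% of these wells at 100 CPM or more. In the *Pecam1*-low mural wells it was at 0.458 and 0.808 CPM. The 6 immune markers, of which the gate limits only *Ptprc*, summed to 4.64 and 154 CPM in the vessel classes and to 330.2 CPM in the capillary-like wells of replicate 2, whereas all 6 were at 0 in the artery-like wells of both replicates. *S1pr5* had a read in 0 wells of the 5 classes.

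Of 29 enzymes of sphingolipid and ceramide metabolism, 25 were tested, and 1 was called in lymphatic wells, where 1.92% of all genes were. The same comparison had 1 gene of the list at an unadjusted p under 0.05 and 1 called by DESeq2. *Ugcg*, which makes glucosylceramide, rose in lymphatic wells by a log2 value of 4.21 ± 0.73 (adjusted p = 0.014, edgeR), from 3.70 to 51.1 CPM in the vessel classes to 362 and 208 CPM. It lost the call with plate A only (adjusted p = 0.19) or plate B only (adjusted p = 0.26), where replicate 1 had no lymphatic sum. The other 4 comparisons had 0 calls by edgeR, with 2, 0, 2 and 3 genes at an unadjusted p under 0.05 and 2, 0, 1 and 1 called by DESeq2, to be read against the shares over all genes given for the previous list. The median log2 difference of the list in lymphatic wells was 0.29, beside -0.029 for all genes tested. The highest levels were those of *Degs1*, *Cers2*, *Sptlc2* and *Cers4*, with means over classes of 157 to 271 CPM.

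Of 23 G proteins, adaptors and effectors that act next to the receptors, 22 were tested, and 2 were called in mural-mixed wells, where 0.513% of all genes were. The same comparison had 3 genes of the list at an unadjusted p under 0.05 and 2 called by DESeq2. In mural-mixed wells *Rgs5* and *Rgs4*, which shorten G-protein signals, rose by log2 values of 4.82 ± 0.62 and 6.41 ± 0.82 (both adjusted p = 0.013, edgeR). *Rgs5* is also on the mural marker list. *Rgs4* lost the call with classes from marker scores (adjusted p = 0.11) and with plate A only (0.066), and *Rgs5* with no replicate block (0.11) and with plate B only (0.056). The median log2 difference of the list was -0.13, beside 0.23 for all genes tested. In the other 4 comparisons 0 were called by edgeR, 1, 2, 2 and 3 had an unadjusted p under 0.05, and DESeq2 called 1, 0, 1 and 1, again beside those shares over all genes. *Rac1* (519 to 881 CPM), *Rhoa* (275 to 745 CPM) and *Gnai2* (256 to 770 CPM), a GTPase of the Gi branch, a GTPase of the G12/13 branch and a Gi subunit in that order, were present in every class.

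For each gene, the genes with the most similar pattern were sought over the 10 sums of class and replicate, as Pearson correlations of log2 CPM after the mean of the replicate had been taken off. For *S1pr1* these were *Polr2e*, *Afap1l1* and *Shkbp1* (0.97, 0.93 and 0.92), for *S1pr3* *Pcdha7*, *Olfr558* and *2810021J22Rik* (0.99 each), and for *Spns2* *Mgea5*, *Nectin2* and *Ginm1* (0.96, 0.95 and 0.95). For *S1pr2* they were *Xdh*, *Pianp* and *Snrnp48* (0.93 each), for *Sphk1* *Peg3*, *Zc3hav1l* and *Rtkn2* (0.96 each), and for *Sphk2* *Mfsd8*, *Rpp30* and *Dhx16* (0.95, 0.92 and 0.92). Among the 6 genes themselves, *S1pr1* and *S1pr3* went apart at -0.68, *S1pr2* and *S1pr3* together at 0.63, and *S1pr1* and *Spns2* were at 0.054. The sums share libraries and differ in depth, and these values are descriptions of 10 points.

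The BECs that clustered under no name, 99 and 239 wells, formed 4 clusters with *S1pr1* at 197 to 757 CPM. Over all of these wells, 68.7% and 46.4% had *S1pr1* at 100 CPM or more. The cluster of 29 and 63 such wells with 8 of 10 mural markers higher had 166 CPM of *S1pr3* in replicate 1 and 2.09 CPM in replicate 2. The value of replicate 1 was carried by 1 well (3.45%) at 4612 CPM, the only one to reach 100 CPM. With this well the unnamed BECs of plate A of replicate 1 stood at 91.4 CPM, above the 53.9 CPM of mural-mixed wells in plate B of replicate 2. In the unnamed cluster with 9 of 10 lymphatic markers higher, *Spns2* stood at 109 and 425 CPM in 7 and 18 wells. In replicate 2, 22.2% of its wells had a read of *Spns2* and 11.1% reached 100 CPM. The unnamed cluster of 53 and 110 wells held 148 and 255 CPM of *Spns2*, which in replicate 2 lay above the lymphatic and vein-like wells.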

How the data were processed

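Smart-seq2 libraries of sorted ear dermal cells were sequenced as single 50-bp reads. Per the labels and the study's methods, the authors aligned reads to mm10 (TopHat2 2.1.1), took out duplicates (SAMtools 0.1.18), which can lower the counts of abundant genes, and deposited raw read counts per gene and well (Subread 1.4.6-p5). The annotation release and the use of strand are not given in the sources used here. Spike-in rows stayed out of totals. Symbols came from GENCODE vM21, in which 46005 of 46517 identifiers matched and 512 did not, and start-site windows from RefSeq (GRCm38.p6), which matched 5 of the 6 genes.

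The genes, lists, markers and tests were chosen with earlier results of these data known, and the limit of 1 marker of another vessel class in cluster names was set after trial clusterings. The 6 genes and the 66 genes of the pathway lists were named by rule, with the 4 most abundant of each list and those past the threshold.

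BECs were clustered (scran 1.30.0 size factors, 1000 variable genes, 15 principal components, 15 neighbours, leidenalg 0.10.2, resolution 0.6), and a cluster took the name of the list with most markers at least 1.25 times higher in both replicates. No doublet caller was run, and the limit of 8000 genes was the only guard. Counts of at least 5 wells were summed per class and replicate into 10 sums and tested with edgeR 4.0.16 (TMM, quasi-likelihood, a block for the replicate, residual degrees of freedom 4, at least 10 counts in at least 2 sums). The block follows the shared pool of mice, and deviations of sums of a replicate correlated at 0.006 to 0.15. An exact permutation of 2 against 2 replicates cannot go below p = 0.33. On simulated data with the estimated dispersion (1.23), edgeR recovered 12% of 200 genes changed 8-fold in artery-like sums among 16056 genes, with 1 false call. At a dispersion of 0.05 it recovered 100% of 200 such genes among 16363 genes, with 5 false calls. DESeq2 1.42.0, limma 3.58.1 (log2 of CPM + 1), thinning to 20000 reads, limits of 10 and 300 CPM, other classes, single plates and single replicates were alternatives. Python 3.11.15 and R 4.3.3 were used.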

Additional observations from a re-analysis of the deposited data

Results flagged for a closer look

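Over the 4 plates, 30 sets of mean CPM per well, 1 for each gene and class, were examined for an outlying plate. Dixon's criterion at 95% flagged 7 of them. By chance it flags about 1 in 20 sets of independent, normally spread values. These means have a floor of 0 and plates share mice, so the 7 cannot be set against that rate. The highest plate stood out each time. For *Sphk1* in vein-like wells it was plate B of replicate 2, at 109 CPM in 12 wells, with the next plate at 8.61 CPM. For *Spns2* in lymphatic wells it was plate B of replicate 1, at 356 CPM in 4 wells, with the other plates at 177 to 182 CPM. *S1pr2* stood out in plate B of replicate 1 in artery-like wells (1.73 CPM) and capillary-like wells (18.5 CPM, 76 wells) and in plate A of replicate 1 in vein-like wells (5.61 CPM). In artery-like wells the other 3 plates were at 0, so that any read in the remaining plate meets the criterion. *S1pr3* and *Sphk1* in artery-like wells each reached 6.98 CPM in plate A of replicate 1, which held 3 such wells, with the next plates at 0.669 CPM. The plates of one replicate share their mice, and few wells lie behind the values of *Spns2*, *S1pr3* and *Sphk1*. The part of the number of wells was not tested.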

How the results depend on the processing

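The number of the 6 genes past the threshold was the same in 71 of 73 alternatives over the 5 comparisons. It fell from 1 to 0 for mural-mixed wells with plate A only and with plate B only, where *S1pr3* had log2 values of 8.12 and 8.38 (adjusted p of 0.099 and 0.10), with adjusted p of 7.0e-11 to 0.10 over its alternatives. Leaving out a replicate gave log2 values of 5.70 (without replicate 2) and 8.56 (without replicate 1), with no test. The fit with no replicate block gave 6.77 (adjusted p = 0.043), and the mean CPM per well with limma 5.65 (adjusted p = 0.043). Without the block *Rgs5* lost its call, and no other call on the genes named here changed. *Spns2* changed sign in artery-like BECs at the 300 CPM limit (0.96) and with plate A only (0.84), and in mural-mixed wells without replicate 2 (0.13, beside -2.80 without replicate 1). The causes of these changes were not tested, apart from the fewer wells in fits of 1 plate. Over all genes, 88 were called in mural-mixed wells and 10 to 660 under the alternatives, 329 and 85 to 1631 in lymphatic wells, 6 and 0 to 701 in artery-like, 0 and 0 to 168 in capillary-like and 0 and 0 to 241 in vein-like BECs, the highest of each by DESeq2. Of 474 levels recomputed with other classes, limits, plates or thinned wells, 106 moved by more than the SD between replicates, and of 474 shares of wells with a read, 69 did. Classes from one clustering of all wells could replace only the lymphatic and mural-mixed gates, since none of 7 resolutions gave the 3 vessel classes in both replicates. Some fits lacked sums of replicate 1 with under 5 wells, the artery-like and capillary-like at the 10 CPM limit, the artery-like with plate A only and the lymphatic with plate B only, and the fit of sums per plate lacked the artery-like sum of plate A and the lymphatic sum of plate B of that replicate. Few reads limit the values of *S1pr2*, which had 2 reads in the vessel classes of replicate 2.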
